A study of Mus musculus with 5 samples.

Results

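The MYC, MAX and MXD network was described in GL261 cells, a line of mouse glioma cells, exposed for 24 h to sodium propionate or to sodium chloride. Its members were taken by name as the 10 genes Myc, Mycn, Mycl, Max, Mxd1, Mxd3, Mxd4, Mxi1, Mnt and Mlx, out of 55483 genes in the files. They were chosen with earlier results of these data known. Of these, 8 had a mean level of at least 1 TPM (transcripts per 1000000, a level scaled by transcript length and library) and were tested, among 13878 genes tested in all; Mycn and Mycl were below that level. There were 2 sodium propionate libraries (replicates 2 and 3) and 3 sodium chloride libraries (replicates 1, 2 and 3), and the labels give a dose of 1 uM for both salts. Propionate is a short-chain fatty acid that bacteria of the gut release, and sodium chloride supplied the same cation without the fatty acid. The labels name no genetic change in the cells and describe the line only as tumor. Nothing in them says whether the replicates were separate cultures, so p-values here reflect just the spread between these libraries, which can be technical.

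MYC proteins bind DNA as dimers with MAX at a short palindrome called the E-box and raise transcription of genes for ribosome assembly, nucleotide synthesis and cell cycle entry. MXD proteins, MXI1 and MNT compete for MAX, bind the same element and recruit SIN3 and histone deacetylases, so they act against MYC. MLX is a second hub of the network that pairs with MXD1, MXD4 or MNT and with the glucose-sensing factors MONDOA (Mlxip) and CHREBP (Mlxipl). MYC messenger RNA is short-lived, and the balance between MYC and its MXD antagonists usually turns with proliferation and differentiation.

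The E-box sequence CACGTG is shown first because the network binds it and some members carry it beside their own start. In RefSeq promoter windows (GRCm38.p6, 250 bases before to 50 bases after each annotated start), 9 of the 10 members had a window and 4 of these held CACGTG, which reads the same on both strands. Over all genes with a window the share was 8.09% (2187 of 27025), and over the tested genes it was 11.9% (1128 of 9490). The 60 bases around the element are given 5′ to 3′ on the strand of the gene with the E-box in capitals.
Mxd4, chr5:34187897-34187956, minus strand, E-box beginning 219 bases before the start: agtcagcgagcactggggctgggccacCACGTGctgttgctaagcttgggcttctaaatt
Mnt, chr11:74830774-74830833, plus strand, 123 bases before the start: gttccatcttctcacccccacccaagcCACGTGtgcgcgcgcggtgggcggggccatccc
Mlx, chr11:101087223-101087282, plus strand, 40 bases before the start: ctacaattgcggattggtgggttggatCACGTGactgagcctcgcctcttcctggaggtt
Max, chr12:76962219-76962278, minus strand, 3 bases before the start: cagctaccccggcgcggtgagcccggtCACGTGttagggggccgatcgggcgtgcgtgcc
By RefSeq starts, the E-box of Max lay across the start itself, and those of Mlx, Mnt and Mxd4 stood progressively farther upstream. In the files Max and Mxd4 begin elsewhere, at 76962201 and 34187880. The main Mlx forms begin at 101087277 and 101087300, and the main Mnt forms at 74830869 (assembled) and 74830920 (reference), also not at the RefSeq starts. These distances and their order therefore hold for the RefSeq starts alone. The Max E-box lies wholly upstream of 76962201. The windows of Mycl, Mxd1, Mycn and Mxd3 and the 3 windows of Mxi1 did not hold these letters. A match describes the letters in a window and does not show binding.

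No member of the network changed after propionate at an adjusted p under 0.05 (limma, Benjamini-Hochberg over all tested genes), where 1.31% of all tested genes were higher and 0.504% were lower, 1.82% in either direction. None of the 8 tested members reached an unadjusted p under 0.05 either, where 7.93% of all tested genes were higher and 8.9% were lower. With voom on aligned bases, run as an alternative, 0 members passed, where 5.11% of tested genes were higher and 2.58% lower. There 1 of the 8 members, Mxd1, was lower at an unadjusted p under 0.05, as were 1552 of all 13878 tested genes. The 8 changes ran from -0.24 to 0.05 on the log2(TPM + 1) scale, with 6 below 0 and a median of -0.11, against a median of -0.03 over all tested genes, of which 55.5% were below 0. Mxd1 was the only tested member whose libraries did not overlap between the groups, a state seen in 34.6% of all tested genes. The median rested on propionate replicate 2. Without that library it was 0.02, with 4 changes above 0 and 4 below, against 0.03 over all tested genes; without propionate replicate 3 it was -0.22, with all 8 below 0, against -0.08; and without chloride replicate 1 it was -0.03, against -0.01. Propionate replicate 2 held the lowest value of 5 of the 8 tested members and the highest of none. That library also had the smallest share of TPM in protein-coding genes, 45.2%, against 50.3% in propionate replicate 3 and 49.1%, 47.7% and 46.7% in the chloride libraries. With TPM over protein-coding genes the members' median was -0.11, against -0.02 over all genes tested there.

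**Figure D1:**
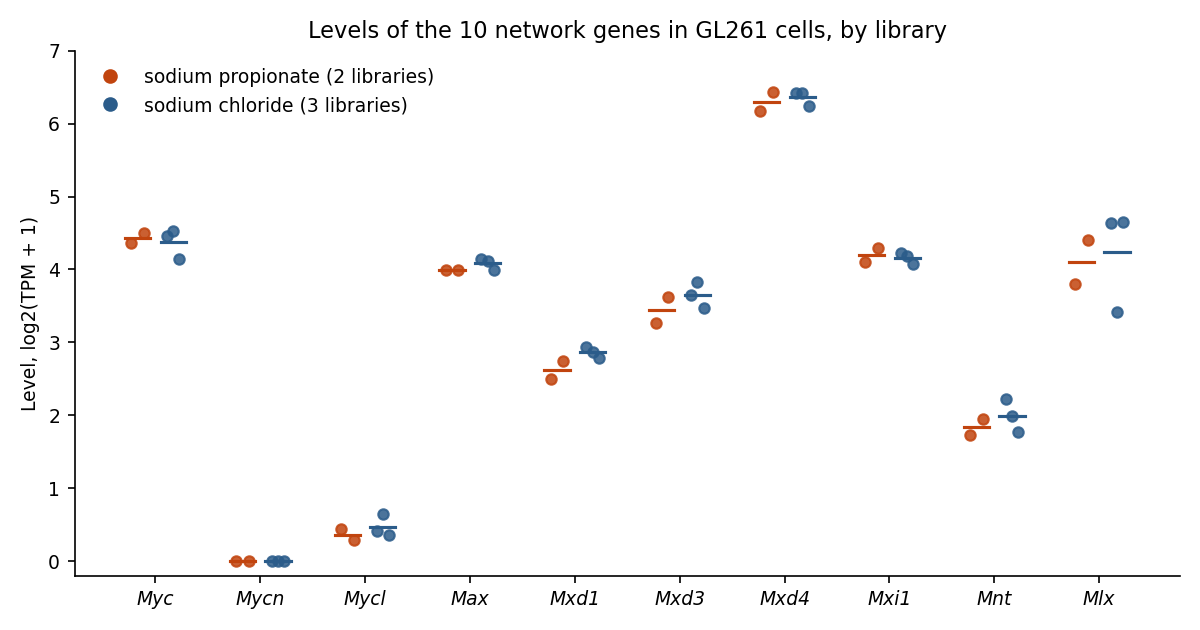
Level of each of the 10 members as log2(TPM + 1) on the vertical axis, with 1 point per library and a bar at the mean of the group, sodium propionate left of sodium chloride. Mxd4 is highest in all 5 libraries, Mycn is at 0 in all 5, the groups overlap for every tested member except Mxd1, and the points of Mlx are the most widely spread.

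The libraries were of like depth. Aligned sequence came to 7.23 to 7.44 Gb in the propionate libraries and 7.19 to 7.63 Gb in the chloride libraries, and the average depth per base of a transcript at 1 TPM was 4.73 to 4.99. Of 7 glioma or neural markers 6 averaged over 1 TPM, and their summed level was 6297 and 7066 TPM in propionate libraries against 5635 to 7256 TPM in chloride libraries, nearly all of it from the intermediate filament gene Vim. Within this list the radial glia gene Fabp7 was higher after propionate, at 21.5 and 25.97 TPM against 13.05, 12.9 and 14.4 TPM in chloride libraries (0.77, limma adjusted p = 0.0196). Gfap of astrocytes was at 5.24 and 6.59 TPM in propionate libraries against 5.13, 5.20 and 3.22 TPM in chloride libraries (limma adjusted p = 0.421). Olig2 of the oligodendrocyte lineage was at 0.85 and 0.90 TPM in propionate libraries against 0.68, 0.59 and 0.36 TPM in chloride libraries and was too low to be tested. The groups overlapped for the other markers of this list, Nes, Vim, Sox2 and Cd44. Their changes were 0.07, 0.004, 0.27 and 0.15 (limma adjusted p = 0.771, 0.991, 0.399 and 0.563). The part of these markers in the results on the network was not tested. The 5 leukocyte markers summed to at most 0.36 TPM and the 3 endothelial markers to at most 0.16 TPM in any library, with Itgam, Cdh5 and Kdr at 0 in all 5. Of 3 fibroblast or pericyte markers Lum was at 0, Dcn was above 0 in 1 library, and Pdgfrb stood at 2.29 and 1.91 TPM in propionate libraries against 1.01, 0.65 and 0.63 TPM in chloride libraries. The neuronal markers Rbfox3 and Snap25 were at 0 in every library, and Syt1 reached at most 0.04 TPM. In bulk RNA, fewer cells with a transcript and less of it per cell cannot be told apart.

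Myc was the only abundant gene of the MYC family. Myc (ENSMUSG00000022346, chr15:61985391-61990374, plus strand, mm10 as in the files) was at 19.6 and 21.6 TPM in propionate libraries, against 21.1, 22.2 and 16.7 TPM in chloride libraries. Both propionate values fell inside the range of the chloride values. The means were 20.6 ± 1.39 TPM in propionate (SD, n = 2) and 19.98 ± 2.91 TPM in chloride libraries (SD, n = 3), and the change of 0.05 ± 0.13 (SE, log2 scale; 95% interval -0.26 to 0.36) did not pass (limma adjusted p = 0.897). Mycn, the neural paralogue that is amplified in neuroblastoma, has 3 annotated transcripts at chr12:12936093-12941914, and all were listed at 0 in each of the 5 libraries. Mycl (chr4:122995652-123002485), first found in lung cancer, was at 0.35 and 0.22 TPM in propionate libraries and at 0.33, 0.56 and 0.28 TPM in chloride libraries. These levels lay below the minimum for testing and overlapped between the groups.

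The Myc signal came from 3 transcripts above a mean of 1 TPM, which differ in where they start. The longest of these, ENSMUST00000161976, held 12.1 and 11.9 TPM in propionate libraries and 11.7, 11.9 and 8.72 TPM in chloride libraries. Its propionate values stood just above all chloride values, and the change of 0.15 ± 0.18 did not pass (limma adjusted p over 32170 tested transcripts = 0.860). ENSMUST00000159327, which starts 173 bases downstream, was at 3.03 and 7.005 TPM in propionate libraries and 5.31, 4.42 and 4.38 TPM in chloride libraries. ENSMUST00000167731, which starts a further 58 bases downstream, was at 3.37 and 1.00 TPM in propionate libraries and 3.37, 4.22 and 1.68 TPM in chloride libraries. These shorter forms share nearly all of their bases with the longest one, so the split between them rests on few positions, and their values varied more between libraries than the sum did.

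Max, the shared partner of all members except Mlx, was steady. Max (ENSMUSG00000059436, chr12:76937269-76962201, minus strand) was at 14.86 and 14.95 TPM in propionate libraries, against 16.6, 16.4 and 14.88 TPM in chloride libraries. The higher propionate value stood just above the lowest chloride value, so the groups overlapped. The change was -0.09 ± 0.10 (95% interval -0.32 to 0.14; limma adjusted p = 0.711). The ratio of the MYC family sum to Max was 1.34 and 1.46 in propionate libraries and 1.29, 1.39 and 1.14 in chloride libraries, also overlapping.

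The main Max transcripts differ by an alternative coding exon. It spans chr12:76961263-76961289 on the minus strand and adds 27 bases, or 9 codons. The exon makes up 27 of the 32 bases that ENSMUST00000110395 holds and the form without it lacks. It is printed 5′ to 3′ from the GENCODE transcript, with the exon in capitals and 15 bases of the neighbouring exons on each side.
Max exon 2 of ENSMUST00000110395: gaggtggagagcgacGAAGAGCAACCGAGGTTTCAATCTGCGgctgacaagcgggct
The form with the exon was at 5.23 and 5.07 TPM in propionate libraries, against 3.18, 6.55 and 2.91 TPM in chloride libraries. The form without it, ENSMUST00000082136, was at 5.93 and 7.14 TPM in propionate libraries, against 10.5, 6.55 and 7.57 TPM in chloride libraries. As a share of all Max TPM the form with the exon made up 35.2% and 33.9% in propionate libraries and 19.1%, 40.0% and 19.6% in chloride libraries. The propionate shares lay between those of the chloride libraries, and neither form passed (limma adjusted p = 0.851 with the exon and 0.832 without it). Another form, ENSMUST00000218653, stayed between 1.39 and 1.82 TPM in all 5 libraries.

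The MXD genes and Mxi1 were led by Mxd4, and Mxd1 had the change farthest from 0 among the tested members. Mxd1 (ENSMUSG00000001156, chr6:86647042-86669161, minus strand), the founding antagonist, which rises when many cells differentiate, was at 4.65 and 5.68 TPM in propionate libraries, against 6.67, 6.27 and 5.89 TPM in chloride libraries. Both propionate values lay below all chloride values, as in 19.7% of all tested genes. The means were 5.16 ± 0.73 TPM in propionate (SD, n = 2) and 6.28 ± 0.39 TPM in chloride libraries (SD, n = 3), and the change of -0.24 ± 0.13 (95% interval -0.54 to 0.05) did not pass (limma unadjusted p = 0.095, adjusted p = 0.386). Leaving out propionate replicate 3 gave a change of -0.36, and leaving out propionate replicate 2 gave -0.12. Over 18 settings the smallest adjusted p of Mxd1 was 0.173, with TPM over protein-coding genes, and the largest was 0.728. Its main transcript, ENSMUST00000001184, held 82.4% to 90.8% of its TPM in all libraries.

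Mxd3 (ENSMUSG00000021485, chr13:55325168-55329823, minus strand), the MXD gene most tied to dividing cells, was at 8.59 and 11.3 TPM in propionate libraries, against 11.5, 13.2 and 10.04 TPM in chloride libraries. Propionate replicate 2 stood below all chloride libraries and propionate replicate 3 did not. The change was -0.21 ± 0.15 (95% interval -0.55 to 0.14; limma adjusted p = 0.536), and it was -0.03 with propionate replicate 2 left out and -0.39 with propionate replicate 3 left out. The value is uncertain by the share of reads that fall where Mxd3 overlaps Prelid1 on the other strand, which is 105 bases long. The main Prelid1 transcript there was at 36.9 and 29.1 TPM in propionate libraries and 31.5, 33.5 and 27.4 TPM in chloride libraries. An assembled Nsd1 transcript on that strand also shares 105 bases with Mxd3. It was at 8.48 and 12.2 TPM in propionate libraries and 14.2, 13.5 and 13.3 TPM in chloride libraries. The files were made without a strand option.

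Mxd4 (ENSMUSG00000037235, chr5:34173883-34187880, minus strand) was the most abundant member in every library. It was at 71.4 and 85.1 TPM in propionate libraries, against 84.6, 84.8 and 74.7 TPM in chloride libraries. The propionate values stood at both ends of the range and the groups overlapped. The change was -0.06 ± 0.11 (95% interval -0.31 to 0.19; limma adjusted p = 0.843). Chloride replicate 1 differed from the other libraries in where its Mxd4 coverage was placed. An assembled transcript that lacks 73 bases of the last exon held 52.7 TPM there and 0 in the other 4 libraries, and the main reference form held 27.6 TPM there against 67.0 and 79.8 TPM in the propionate libraries and 78.9 and 69.7 TPM in the other chloride libraries. Summed over reference transcripts alone, Mxd4 was at 70.0 and 85.1 TPM in propionate libraries and 31.9, 82.9 and 74.7 TPM in chloride libraries, and its change took the opposite sign, 0.40 ± 0.42 (limma adjusted p = 0.738).

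Mxi1 (ENSMUSG00000025025, chr19:53310518-53375810, plus strand), also known as Mxd2, was at 16.1 and 18.7 TPM in propionate libraries, against 17.7, 17.2 and 15.9 TPM in chloride libraries. The groups overlapped, and the change was 0.04 ± 0.11 (95% interval -0.21 to 0.29; limma adjusted p = 0.909). Its transcripts begin at alternative first exons 18895 bases apart. The form from the upstream start, ENSMUST00000003870, was at 8.67 and 8.89 TPM in propionate libraries and 9.71, 10.7 and 6.50 TPM in chloride libraries. The form from the downstream start, ENSMUST00000111737, was at 7.11 and 9.58 TPM in propionate libraries and 7.09, 5.70 and 8.09 TPM in chloride libraries. The upstream form made up 53.7% and 47.6% of Mxi1 TPM in propionate libraries and 54.9%, 62.1% and 40.9% in chloride libraries. Neither form passed (limma adjusted p = 0.9999 upstream and 0.846 downstream). The forms share 4688 bases, so the split rests on the 456 and 308 bases that only 1 of them holds.

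Mnt, the most widely expressed antagonist in most tissues, was low in these cells and split between forms. Mnt (ENSMUSG00000000282, chr11:74830920-74846220, plus strand) was at 2.32 and 2.86 TPM in propionate libraries, against 3.68, 2.98 and 2.40 TPM in chloride libraries, with overlapping groups and a change of -0.15 ± 0.18 (95% interval -0.56 to 0.26; limma adjusted p = 0.727). The reference form carries a coding exon of 42 bases, or 14 codons, at chr11:74837431-74837472, which the form assembled from the reads lacks. The exon is printed in capitals with 15 bases on each side, since the form with it and the form without it lay on opposite sides of their chloride values.
Mnt exon 3 of ENSMUST00000000291: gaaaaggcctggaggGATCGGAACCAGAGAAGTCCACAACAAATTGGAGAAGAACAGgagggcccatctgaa
The form with the exon was at 1.33 and 0.91 TPM in propionate libraries, against 0.04, 0.19 and 0.03 TPM in chloride libraries. Both propionate values lay above all chloride values, as in 8.93% of all 98090 transcripts above 0. Its mean level was below 1 TPM, so it was left out of the main transcript test; with no minimum, where 5.43% of transcripts had an unadjusted p under 0.05, its p was 0.0058, with a limma adjusted p = 0.569. The assembled form without the exon, which also starts 51 bases farther upstream, was at 0.98 and 1.95 TPM in propionate libraries, against 3.64, 2.78 and 2.37 TPM in chloride libraries. Here both propionate values lay below all chloride values, and the change of -0.69 ± 0.29 did not pass (limma unadjusted p = 0.065, adjusted p = 0.725). The form with the exon made up 57.1% and 31.9% of Mnt TPM in propionate libraries and 1.07%, 6.44% and 1.36% in chloride libraries. StringTie shares out the coverage of the bases that both forms hold, so the split rests on the reads at the exon and at the starts, at a gene level of 2.32 to 3.68 TPM.

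Mlx was the most variable tested member, and it was lowest in the libraries where a transcript shared with the gene upstream was highest. Mlx (ENSMUSG00000017801, chr11:101087277-101092207, plus strand) was at 12.9 and 20.1 TPM in propionate libraries, against 23.8, 9.68 and 24.2 TPM in chloride libraries. Chloride replicate 2 was the lowest of all 5 libraries and the other chloride libraries the highest. The means were 16.5 ± 5.08 TPM in propionate (SD, n = 2) and 19.2 ± 8.27 TPM in chloride libraries (SD, n = 3), and the change of -0.13 ± 0.36 had an interval of -0.95 to 0.69 (limma adjusted p = 0.895). An assembled transcript of the locus runs from Coasy, the gene of the last enzymes of coenzyme A synthesis, through Mlx and shares 1826 bases with Mlx exons. It was counted in Coasy, which it overlaps most, and was at 11.5 and 4.501 TPM in propionate libraries and 8.02, 13.3 and 4.89 TPM in chloride libraries. It was highest in propionate replicate 2 and chloride replicate 2, the libraries in which Mlx was lowest.

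With the Coasy transcript counted in Mlx as well, Mlx was at 24.5 and 24.6 TPM in propionate libraries, against 31.8, 23.0 and 29.1 TPM in chloride libraries. The SD was then 0.11 TPM in propionate (n = 2) and 4.53 TPM in chloride libraries (n = 3). The groups still overlapped, and the change was -0.17 ± 0.14 (95% interval -0.50 to 0.16; limma adjusted p = 0.606). Chloride replicate 2 was the lowest library under both ways of counting. Mlx exons also overlap Psmc3ip on the other strand by 385 bases, and the main Psmc3ip transcript there was at 4.74 to 5.19 TPM in propionate libraries and 5.07 to 7.61 TPM in chloride libraries.

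Both main Mlx forms carry a coding exon of 90 bases, or 30 codons, at chr11:101088236-101088325 that an annotated shorter form lacks. It is printed in capitals with 15 bases on each side because nearly all Mlx signal came from forms that hold it.
Mlx exon 3 of ENSMUST00000107302: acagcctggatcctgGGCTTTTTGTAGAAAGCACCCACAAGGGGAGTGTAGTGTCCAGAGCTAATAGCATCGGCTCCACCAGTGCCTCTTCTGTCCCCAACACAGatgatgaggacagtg
ENSMUST00000107302 was at 4.65 and 15.2 TPM in propionate libraries, against 11.5, 4.28 and 14.5 TPM in chloride libraries. ENSMUST00000017945, which holds 162 further bases, was at 8.03 and 4.88 TPM in propionate libraries, against 12.3, 3.72 and 9.68 TPM in chloride libraries. ENSMUST00000107303, which equals ENSMUST00000107302 without the exon, was above 0 in only 2 libraries, at 0.21 TPM in propionate replicate 2 and 1.30 TPM in chloride replicate 2. The groups overlapped in all 3 forms, and the main forms did not pass (limma adjusted p = 0.984 and 0.920).

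**Figure D2:**
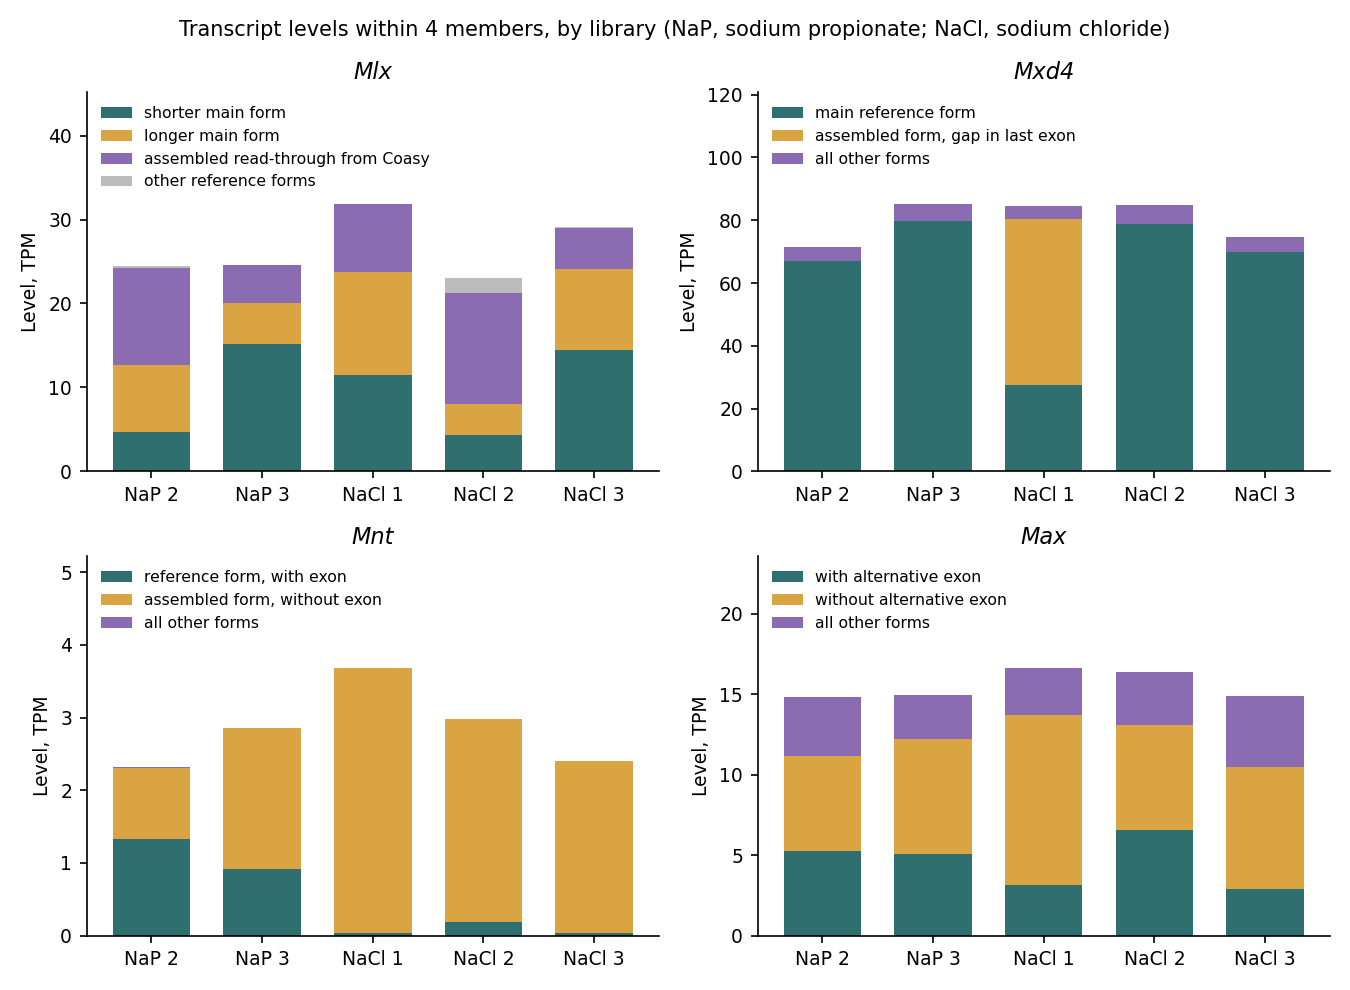
Levels in TPM of the main transcripts of Mlx, Mxd4, Mnt and Max, stacked for each library, with sodium propionate (NaP) left of sodium chloride (NaCl). The Coasy read-through of Mlx is largest in NaP 2 and NaCl 2, the assembled Mxd4 form is present in NaCl 1 alone, and the Mnt form with the alternative exon is at 1.33 and 0.91 TPM in propionate and at most 0.19 TPM in chloride libraries.

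Over all 56 transcripts of the members (52 reference and 4 assembled), 16 averaged at least 1 TPM and were tested. None passed the threshold and none had an unadjusted p under 0.05, where 0.0404% of all 32170 tested transcripts passed (0.0218% higher and 0.0187% lower) and 7.2% had such a p. The smallest adjusted p was 0.725, of the assembled Mnt form. The groups did not overlap in 3 of the 16, against 25.1% of all tested transcripts. These were the assembled Mnt form, the longest Myc form and the Mxd4 transcript ENSMUST00000201763, which was at 2.93 and 2.95 TPM in propionate libraries and 3.44, 3.76 and 3.58 TPM in chloride libraries.

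The order of the levels was stable at its ends. Mxd4 ranked first, Mxd1 seventh, Mnt eighth, Mycl ninth and Mycn last in every library. Myc, Mxi1, Max and Mlx lay between 9.68 and 24.2 TPM. Myc stood above Mxi1 and Mxi1 above Max in every library, though the ranges of these neighbours overlapped, and Mlx ranged from second to sixth. The MXD genes, Mxi1 and Mnt together summed to 103 and 124 TPM in propionate libraries, against 124, 124 and 109 TPM in chloride libraries, of which Mxd4 made up 68.1% to 69.3%. This sum stood to that of the MYC family as 5.17 and 5.67 to 1 in propionate libraries and 5.79, 5.48 and 6.43 to 1 in chloride libraries. The ratios overlapped, with the lowest in propionate replicate 2 and the highest in chloride replicate 3, the library with the lowest Myc.

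**Figure D3:**
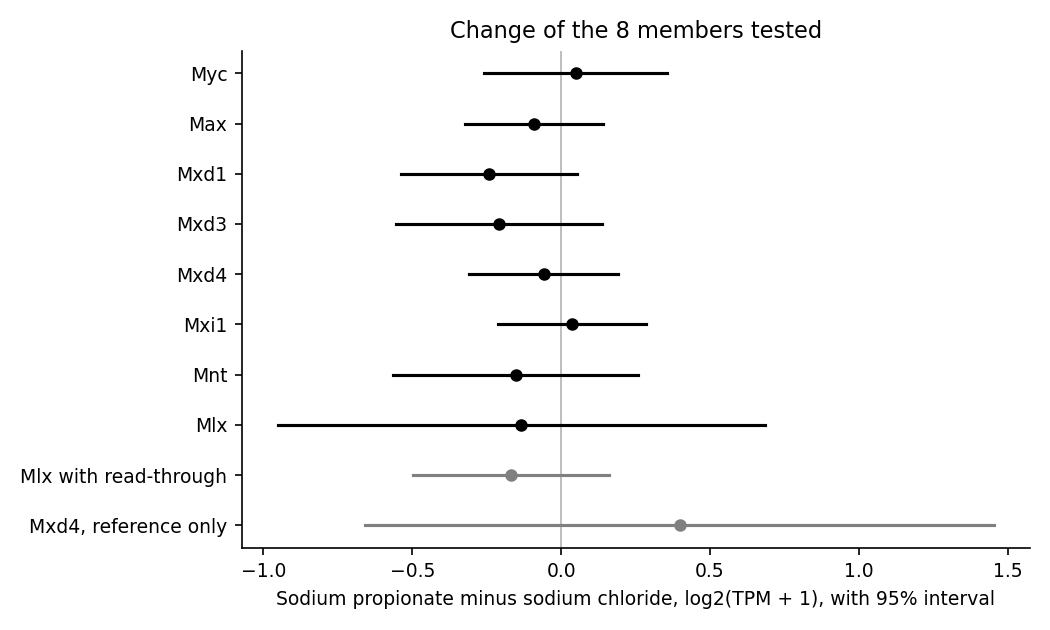
Change of each tested member as sodium propionate minus sodium chloride on the log2(TPM + 1) scale, with the 95% interval from limma. Every interval includes 0; the grey rows give Mlx with the Coasy read-through counted, where the interval narrows to -0.50 to 0.16, and Mxd4 over reference transcripts only, where the change is 0.40 in place of -0.06.

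Around the network, a list of 42 partners and regulators was read from the same fit. Of its 40 tested genes none was higher and none lower at an adjusted p under 0.05 (limma), where 1.31% and 0.504% of all tested genes were. The median change was -0.13 with 11 above 0 and 29 below, against -0.03 over all tested genes, of which 55.5% were below 0. Without propionate replicate 2 the median was -0.06, with 16 above 0 and 24 below, against 0.03 over all tested genes. Without propionate replicate 3 it was -0.18, with 6 above and 34 below, against -0.08. At an unadjusted p under 0.05 none was higher and 7 were lower, where 7.93% of all tested genes were higher and 8.9% lower. The smallest p belonged to Fubp1, a single-strand DNA binding protein first described at the far upstream element of human MYC, which was at 40.1 and 40.7 TPM in propionate libraries, against 53.0, 57.1 and 49.4 TPM in chloride libraries. Its groups were apart, and the change was -0.39 ± 0.10 (limma adjusted p = 0.0936). Ruvbl1, an ATPase of MYC's chromatin cofactors, was at 40.9 and 52.7 TPM in propionate libraries and 57.4, 63.5 and 59.1 TPM in chloride libraries (limma adjusted p = 0.183). Kat2a, the acetyltransferase of the SAGA complex, was at 18.3 and 19.8 TPM in propionate libraries and 25.8, 23.4 and 21.99 TPM in chloride libraries (limma adjusted p = 0.206). Cip2a, which keeps a phosphatase from MYC protein, was at 36.0 and 33.4 TPM in propionate libraries and 41.8, 40.6 and 41.3 TPM in chloride libraries (limma adjusted p = 0.225). With TPM over protein-coding genes Fubp1 and Ruvbl1 passed (adjusted p = 0.0289 and 0.0450), and with voom Kat2a passed (adjusted p = 0.0439). In these settings 405 of 11965 and 358 of 13878 tested genes were lower.

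The partners of MLX and of MAX outside the members differed in level. Mlxip, which encodes MONDOA, was at 4.34 and 4.06 TPM in propionate libraries, against 6.07, 5.86 and 4.58 TPM in chloride libraries. Its groups were apart, and the change of -0.32 ± 0.14 did not pass (limma adjusted p = 0.321). Mlxipl (chr5:135089890-135138382), which encodes CHREBP, a factor best known from liver, was at 1.33 and 1.11 TPM in propionate libraries, against 0.26, 0.32 and 0.19 TPM in chloride libraries. Both propionate values lay above all chloride values, but its mean level over the 5 libraries was below 1 TPM and kept it out of the main test. With no minimum its change was 0.82 ± 0.10 and did not pass over 30487 genes (limma unadjusted p = 0.00058, adjusted p = 0.145). With TPM over protein-coding genes the change was 1.22 ± 0.22 and passed (limma adjusted p = 0.0196). There it cleared the minimum only through the propionate libraries, where it is high, so this call adds no support. Mga, a large protein that also pairs with MAX, was at 8.46 and 9.92 TPM in propionate libraries and 8.48, 8.02 and 7.94 TPM in chloride libraries, with overlapping groups (limma adjusted p = 0.5505).

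Among 50 genes that MYC is known to activate, all were tested, 3 fell and none rose after propionate (limma, adjusted p under 0.05; 0.504% of all tested genes were lower), with 48 of 50 changes below 0 and a median of -0.25, against -0.03 over all tested genes. Without propionate replicate 2 the median was -0.15, with 40 of 50 below 0, against 0.03 over all tested genes, and without propionate replicate 3 it was -0.31, with 49 below 0, against -0.08. At an unadjusted p under 0.05, 21 were lower and none was higher, beside 8.9% and 7.93% of all tested genes. Many of these genes serve ribosome assembly in the nucleolus, and the list was drawn up with earlier results of these data known, so its direction is a description. The genes that fell were Nop58, Apex1 and Dkc1. In the promoter windows, 12 of the 42 listed genes with a window (28.6%) held CACGTG, against 11.9% of tested genes. The list was chosen as MYC targets, so this share describes the choice of genes and not their change after propionate.

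Nop58, a core protein of the box C/D particles that methylate ribosomal RNA, was at 17.4 and 18.0 TPM in propionate libraries, against 30.7, 31.3 and 25.2 TPM in chloride libraries. The groups were far apart, and the change was -0.68 ± 0.12 (limma adjusted p = 0.0322). On aligned bases, where long transcripts weigh more, it was -0.29 with voom and passed, and with reference transcripts only it was -0.39 and did not pass (adjusted p = 0.506). Apex1, the endonuclease of base excision repair, was at 16.5 and 18.9 TPM in propionate libraries, against 26.97, 25.8 and 29.4 TPM in chloride libraries, a change of -0.60 ± 0.11 (limma adjusted p = 0.0352). Its exons share 877 bases with a Pip4p1 transcript on the other strand, at 12.6 and 14.8 TPM in propionate libraries and 13.3 to 16.0 TPM in chloride libraries, so its value is uncertain. Dkc1, the pseudouridine synthase of box H/ACA particles, was at 24.6 and 25.8 TPM in propionate libraries, against 35.2, 34.3 and 37.4 TPM in chloride libraries, a change of -0.48 ± 0.09 (limma adjusted p = 0.0465). Apex1 and Dkc1 lost their calls with any 1 of the 5 libraries left out (adjusted p = 0.0690 to 0.119 and 0.117 to 0.134), and Nop58 did so in 4 of the 5 cases, keeping it only without chloride replicate 3 (0.0187 to 0.151).

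The listed genes with the next smallest p were Eif4a1, Nop56, Prmt3 and Ppan. Eif4a1, the helicase of translation initiation, was at 369 and 389 TPM in propionate libraries, against 463, 490.0 and 489.8 TPM in chloride libraries (-0.34, limma adjusted p = 0.0761). Nop56, which pairs with Nop58, was at 74.2 and 85.7 TPM in propionate libraries, against 104, 104 and 103 TPM in chloride libraries (-0.37, limma adjusted p = 0.0936). In both genes the groups were apart and the calls fell short. Both passed with median-of-ratios scaling (adjusted p = 0.0453 for Eif4a1 and 0.0326 for Nop56), with voom (0.0120 and 0.0195) and with protein-coding TPM (0.0225 and 0.0102). Lower calls in these settings were 153 of 13873, 358 of 13878 and 405 of 11965 tested genes. Prmt3, a methyltransferase of a ribosomal protein, was at 18.7 TPM in both propionate libraries, against 24.4, 23.4 and 25.2 TPM in chloride libraries (limma adjusted p = 0.103). Ppan, a ribosome assembly factor, was at 25.3 and 26.4 TPM in propionate libraries, against 34.6, 34.7 and 31.3 TPM in chloride libraries (limma adjusted p = 0.111). With TPM over protein-coding genes Prmt3 and Ppan passed (adjusted p = 0.0397 and 0.0263), and with voom Ppan did (0.0270). The widely used MYC targets did not pass either. Ncl, which encodes nucleolin, was at 16.1 and 15.2 TPM in propionate libraries and 23.3, 16.6 and 17.6 TPM in chloride libraries (limma adjusted p = 0.413). Odc1, the first enzyme of polyamine synthesis, was at 48.1 and 60.3 TPM in propionate libraries and 58.6, 52.0 and 55.3 TPM in chloride libraries (limma adjusted p = 0.919). Cad, the first enzyme of pyrimidine synthesis, was at 11.6 and 18.1 TPM in propionate libraries and 19.6, 17.8 and 17.1 TPM in chloride libraries (limma adjusted p = 0.406).

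**Figure D4:**
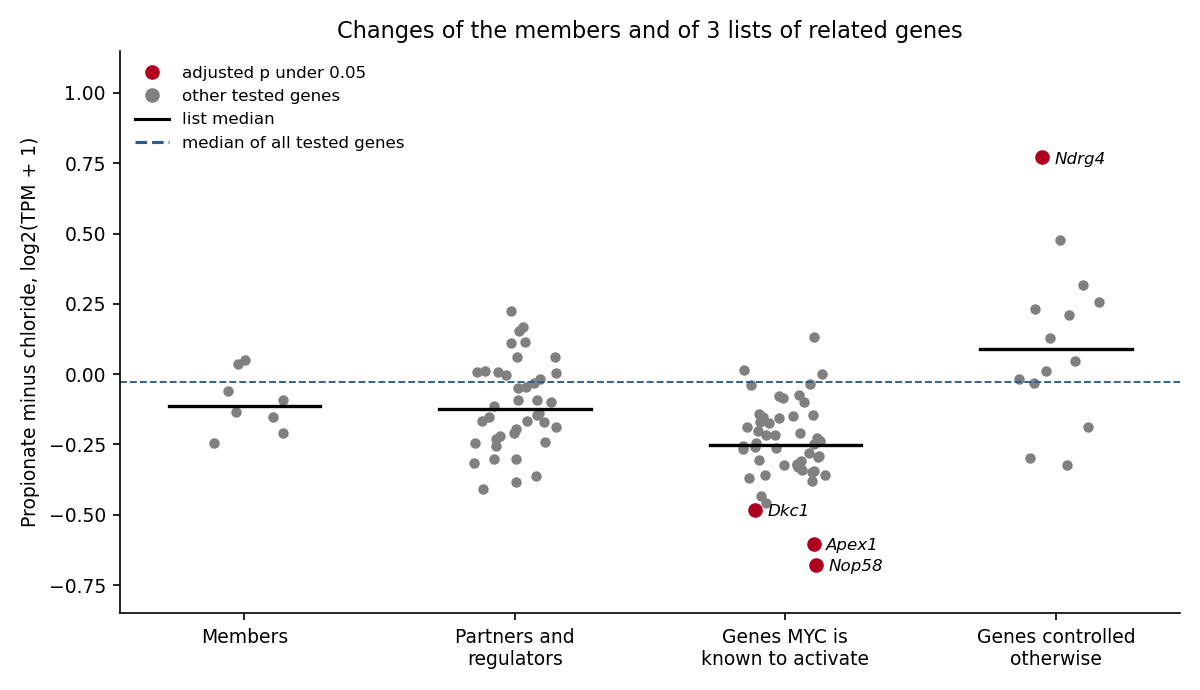
Change of every tested gene of the members and of 3 lists of related genes, as sodium propionate minus sodium chloride on the log2(TPM + 1) scale, with a black bar at the median of each list and a dashed line at the median of all tested genes. The activated genes lie lowest, with a median of -0.25 and 48 of 50 below 0 (-0.15 and 40 of 50 without propionate replicate 2), and the members have a median of -0.11 (0.02 without that library); red points passed the threshold.

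A last list held 16 genes taken as repressed by MYC or switched on by MLX complexes, a control not examined in these cells. Of this list 14 genes were tested. In it 1 gene rose and none fell (limma, adjusted p under 0.05; 1.31% of all tested genes were higher), with 9 changes above 0, 5 below and a median of 0.09. The median over all tested genes was -0.03. Leaving out propionate replicate 2 gave a median of 0.19, against 0.03 over all tested genes, and leaving out propionate replicate 3 gave 0.02, against -0.08. The gene that rose was Ndrg4, of the N-myc downstream-regulated family, at 9.40 and 11.6 TPM in propionate libraries, against 6.15, 5.62 and 5.39 TPM in chloride libraries, a change of 0.77 ± 0.13 (limma adjusted p = 0.0288). It lost the call with any 1 library left out (adjusted p = 0.0530 to 0.165). Its relative Ndrg2 was at 44.4 and 50.5 TPM in propionate libraries and 37.8, 39.0 and 36.7 TPM in chloride libraries (0.32, limma adjusted p = 0.152). It passed with median-of-ratios scaling (adjusted p = 0.0427), with voom (0.0230) and with protein-coding TPM (0.0233). Higher calls in these settings were 336 of 13873, 709 of 13878 and 629 of 11965 tested genes. Over reference transcripts only, the change of Ndrg2 was -0.66 (limma adjusted p = 0.652). Cebpa, a differentiation factor, was at 2.29 and 2.94 TPM in propionate libraries and 1.82, 1.28 and 1.69 TPM in chloride libraries (limma adjusted p = 0.237).

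Gadd45b, a stress response gene, was at 127 and 144 TPM in propionate libraries and 180.2, 176 and 153 TPM in chloride libraries (-0.32, limma adjusted p = 0.171). Dusp1, a phosphatase of stress kinases, was at 29.7 and 32.7 TPM in propionate libraries and 42.1, 39.1 and 34.8 TPM in chloride libraries (-0.30, limma adjusted p = 0.224). Both were below all chloride libraries without passing, but Gadd45b passed with voom (adjusted p = 0.0347) and with protein-coding TPM (0.0311). In these settings 358 of 13878 and 405 of 11965 tested genes were lower. Txnip, the classical target of MONDOA and CHREBP, which limits glucose uptake, was at 169 and 200.5 TPM in propionate libraries, against 170.1, 159.7 and 141 TPM in chloride libraries. Its groups overlapped and the change of 0.23 ± 0.11 did not pass (limma adjusted p = 0.349). Its paralogue Arrdc4, another such target, was listed at 0 in all 5 libraries.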

How the data were processed

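Per the labels' protocols, RNA from an RNeasy Mini plus kit went into TruSeq Stranded Total RNA (Gold) libraries. Tools named in the submitters' processing notes are HISAT2, StringTie, fastp and bcl2fastq, with the build mm10. Per the file headers, StringTie 2.1.1 wrote the deposited TPM, FPKM and coverage of each of 157895 transcripts (142480 reference, 15415 assembled) with no strand option; read counts are not analysed here. These other attributes of the deposited files sit in their last column. Of the reference transcripts found in GENCODE M21, 99.8% had the same lower coordinate and 64.2% the same upper one, so gene bounds are those of the files.

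Gene TPM is the sum over a gene's reference transcripts, matched by either gene name attribute, plus the 12224 assembled transcripts counted in the gene with the largest exon overlap on their strand, 1543 of which reach more than 1 gene. TPM sums to 1000000 over all transcripts, so levels fall where other RNAs take more. Genes with a mean of at least 1 TPM were tested with limma 3.58.1 (R 4.3.3; lmFit, eBayes with trend) on log2(TPM + 1), two-sided, Benjamini-Hochberg adjusted over all tested genes. This scale understates the change of low genes, and the 2 and 3 libraries limit precision. A single-gene permutation test was not used.

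The members and lists were chosen with earlier results of these data known. Named genes are the members; from each of the 3 other lists up to 4 past the threshold with the largest change, plus up to 4 with the smallest p where fewer than 4 passed; and Mga, Mlxip, Mlxipl, Txnip, Arrdc4, Ncl, Odc1 and Cad. Other genes are named as neighbours or markers, or after their values were seen. No 2 libraries held identical values. Propionate replicate 1 was not analysed here. Alternatives were another pseudocount, other minimums, FPKM, other scalings, voom, other ways of counting assembled transcripts, a replicate block, each library left out and eBayes without trend.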

Additional observations from a re-analysis of the deposited data

How the results depend on the processing

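No member passed in any of 18 settings (lowest adjusted p 0.173, Mxd1), and no tested member transcript did. Max, Mxd1, Mxd3 and Mnt stayed below 0 in every setting that could be run for them. Mnt fell below a minimum of 5 TPM and, over reference transcripts only, of 1 TPM. Over reference transcripts only Mnt lay in the opposite direction, untested, at 1.34 and 0.91 TPM in propionate libraries against 0.04, 0.19 and 0.03 TPM in chloride libraries. Changes of the opposite sign were 0.40 for Mxd4, -0.66 for Ndrg2 and 0.32 for Mlxip over reference transcripts only, and 0.066 for Mlx and 0.007 for Odc1 with the replicate block. With each library left out, log2 changes ran from -0.069 to 0.13 for Myc, -0.18 to 0.066 for Mxd4, -0.063 to 0.14 for Mxi1, -0.54 to 0.17 for Mlx and -0.20 to 0.12 for Odc1. The cause was not tested.

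Over all genes, calls higher and lower after propionate were 182 and 70. They were 2 and 1 with no minimum, 336 and 153 with median-of-ratios scaling, 629 and 405 with TPM over protein-coding genes, 709 and 358 with voom, 5 and 6 over reference transcripts only, and 111 and 35 with assembled transcripts over 1 gene only. Lower calls were 118 with FPKM, 30 with eBayes without trend, and 40 with assembled transcripts counted in every gene they overlap, an alternative added after seeing the data. With each library left out, calls ran from 8 to 127 higher (8 without propionate replicate 3) and from 7 to 46 lower; higher calls fell by over 1.5 times without chloride replicate 1 or 2 or either propionate library, and lower calls without any of the 5.

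Among partners and regulators, TPM over protein-coding genes called 1 higher (Mlxipl) and 2 lower (Fubp1 and Ruvbl1), and voom called 1 lower (Kat2a). Mlxipl cleared the minimum there only through its propionate libraries. Of the activated genes, against 3 lower, 0 passed with no minimum, over reference transcripts only, with assembled transcripts over 1 gene only or in every gene, and without trend. There 5 passed with median-of-ratios scaling, 13 over protein-coding genes, 8 with voom, and 0 to 1 with each library left out. Over all tested genes 153 of 13873 were lower with median-of-ratios scaling, 405 of 11965 over protein-coding genes and 358 of 13878 with voom. Higher calls over the same genes were 336, 629 and 709, so these settings called more genes throughout. Of the genes controlled otherwise, against 1 higher, 0 passed with no minimum and over reference transcripts only, 2 (Ndrg4 and Ndrg2) passed with median-of-ratios scaling, over protein-coding genes and with voom, and 0 to 0 with each library left out. In that list 1 (Gadd45b) was lower over protein-coding genes and with voom.

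Over 16 tested member transcripts and 169 alternative values, 20 had the opposite sign and none passed. With the replicate block the changes were 0.082 for ENSMUST00000107302, 0.037 for ENSMUST00000017945, -0.020 for ENSMUST00000042701, 0.064 for ENSMUST00000003870 and 0.072 for ENSMUST00000159327. ENSMUST00000003870 was at 0.0023 with a pseudocount of 0.1 TPM and ENSMUST00000159327 at 0.0028 with FPKM. With each library left out they ran from -0.83 to 0.69 for ENSMUST00000107302, -0.71 to 0.046 for ENSMUST00000017945, -0.020 to 0.72 for ENSMUST00000042701, -0.19 to 0.13 for ENSMUST00000003870, -0.50 to 0.49 for ENSMUST00000159327, -0.98 to 0.15 for ENSMUST00000167731 and -0.012 to 0.11 for ENSMUST00000218653. The assembled Mxd4 form had no value without chloride replicate 1.

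Deviations of same-numbered libraries from their group means correlated at -0.22 for number 2 and -0.19 for number 3. The deviations of the 2 propionate libraries mirror each other, so these values cannot tell whether same-numbered libraries shared a batch. With the replicate block, 107 genes were lower and Dkc1 lost its call, and chloride replicate 1, which has no partner, adds nothing to that fit's changes. The depth was like in all libraries, and with 2 libraries against 3 the intervals of the members, the widest being that of Mlx, limit what could be seen.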
